A study of Mus musculus with 12 samples.

Results

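The 35 genes described here encode parts of the lysosome or its transcriptional control, and they were chosen by name as rows of both count tables, out of 23420 genes listed in each. They fall into 15 hydrolases and their helpers, 7 membrane proteins, 5 subunits of the proton pump and 8 regulators of the TFEB, TFE3 and folliculin system. The study measured poly(A) RNA by sequencing in mouse liver, with 12 libraries in 4 groups of 3 libraries, all labelled as C57BL/6 background. In Tsc1/p62Δhep livers both Tsc1 and Sqstm1, the gene of p62, were floxed and deleted by Cre. In Tsc1Δhep livers only Tsc1 was deleted, in p62Δhep livers only Sqstm1, and p62F/F livers carried floxed Sqstm1 without Cre. Cre was driven by the albumin promoter (Alb-Cre), which is active in hepatocytes, and the labels give the deletions as specific to hepatocytes. Whether every other cell type of the liver kept both genes was not tested. The libraries hold RNA of all liver cells. No Cre-negative livers with floxed Tsc1 were analysed here, so the groups without Tsc1 have no control of their own that kept it. The labels state neither an age nor which animal received which of the diets they name, and they do not say that libraries of 1 group are different mice. The p-values measure the spread between libraries, which may be technical.

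Lysosomes are acidic organelles in which hydrolases break down proteins, glycans and lipids delivered by endocytosis and autophagy, and a proton pump in their membrane keeps them acidic. TFEB and its relatives TFE3 and MITF are transcription factors that bind an E-box, CACGTG, in the promoters of many lysosomal genes. The growth kinase mTORC1 phosphorylates TFEB and TFE3 at the lysosome and keeps them in the cytosol, and this needs the GTPases RagC and RagD together with folliculin and its partners FNIP1 and FNIP2. TSC1 is part of the complex that restrains mTORC1, and p62 is an adaptor that carries cargo to autophagosomes and is itself degraded in lysosomes.

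The promoter sequences of 5 members are shown because they span the range of E-box content and of differences between groups described below. Each window holds 250 bases before and 50 bases after the transcription start, read 5′ to 3′ on the strand of the gene from RefSeq, build GRCm38.p6, and capitals mark each match of TCACGTG on either strand, with overlapping matches run together. Lamp1 (chr8:13158911-13159210, plus strand), encoding the most abundant glycoprotein of the lysosomal membrane, Ctsa (chr2:164833523-164833822, plus strand), encoding the protective cathepsin A, and Gla (chrX:134600956-134601255, minus strand), encoding alpha-galactosidase A, hold several matches. Rragc (chr4:123917183-123917482, plus strand), the gene of RagC, holds 1, and Rragd (chr4:32982748-32983047, plus strand), the gene of RagD, holds none.
Lamp1: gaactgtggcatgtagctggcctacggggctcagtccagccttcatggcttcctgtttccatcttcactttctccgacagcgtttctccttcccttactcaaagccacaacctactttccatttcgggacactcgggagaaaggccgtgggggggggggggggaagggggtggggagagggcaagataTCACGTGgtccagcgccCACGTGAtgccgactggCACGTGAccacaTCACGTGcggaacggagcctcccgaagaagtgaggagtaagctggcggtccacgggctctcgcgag
Ctsa: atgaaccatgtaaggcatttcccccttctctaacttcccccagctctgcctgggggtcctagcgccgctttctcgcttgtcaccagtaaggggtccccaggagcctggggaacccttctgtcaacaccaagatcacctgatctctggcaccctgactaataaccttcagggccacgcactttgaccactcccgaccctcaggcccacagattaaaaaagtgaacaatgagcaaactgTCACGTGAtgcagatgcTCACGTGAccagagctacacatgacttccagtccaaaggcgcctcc
Gla: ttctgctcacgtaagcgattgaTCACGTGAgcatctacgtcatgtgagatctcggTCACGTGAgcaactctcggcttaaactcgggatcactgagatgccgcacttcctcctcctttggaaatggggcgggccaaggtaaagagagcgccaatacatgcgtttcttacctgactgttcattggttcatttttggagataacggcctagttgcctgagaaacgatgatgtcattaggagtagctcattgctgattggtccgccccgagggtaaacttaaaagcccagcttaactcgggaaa
Rragc: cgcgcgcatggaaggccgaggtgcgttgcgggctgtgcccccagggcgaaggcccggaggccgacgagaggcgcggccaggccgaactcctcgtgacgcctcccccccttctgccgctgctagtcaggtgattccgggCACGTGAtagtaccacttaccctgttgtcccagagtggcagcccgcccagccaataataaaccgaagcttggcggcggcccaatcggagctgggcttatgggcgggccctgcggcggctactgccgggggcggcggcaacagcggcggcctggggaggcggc
Rragd: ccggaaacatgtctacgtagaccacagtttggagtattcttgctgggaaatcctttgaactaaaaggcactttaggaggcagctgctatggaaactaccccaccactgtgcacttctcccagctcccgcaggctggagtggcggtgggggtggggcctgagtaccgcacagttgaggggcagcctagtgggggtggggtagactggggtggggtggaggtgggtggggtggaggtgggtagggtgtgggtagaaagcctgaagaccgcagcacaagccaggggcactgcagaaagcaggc
The Lamp1 window held 4 E-boxes, CACGTG, whose first bases lay 61, 45, 28 and 15 bases before the start, more than any other member window. The motif was common among the members. TCACGTG was present in a window of 13 of the 31 members with a RefSeq window, which is 41.9%, and in 1160 of all 27025 genes with a RefSeq window, which is 4.29%. The shorter CACGTG, which lies within TCACGTG, was present in 14 members (45.2%), the further one being Ctsl, and in 8.09% of all genes with a window. These genes are known as lysosomal and TFEB targets, so the share describes the list, and a window without a match says only that the letters are not in these bases.

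**Figure D1:**
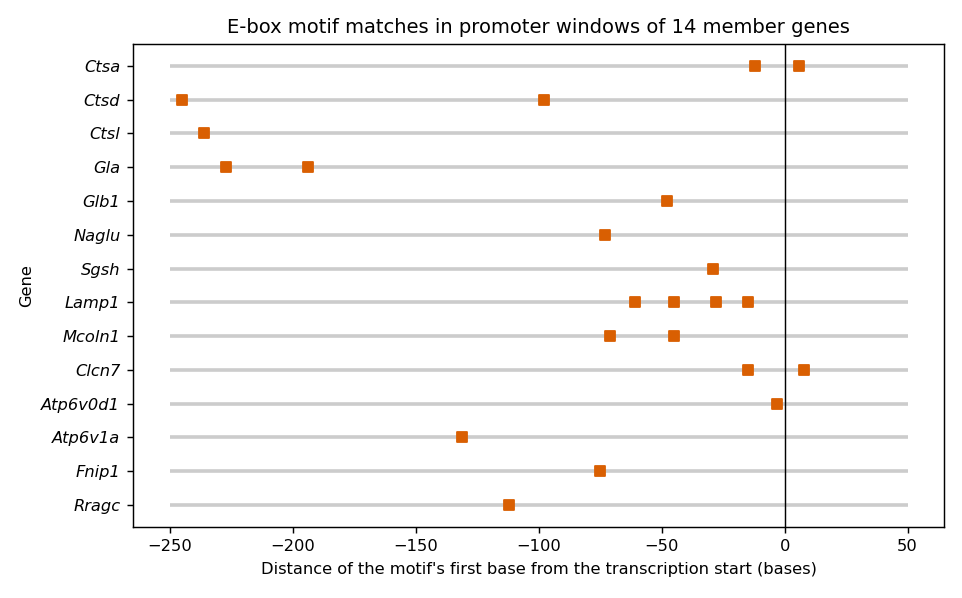
Position of each E-box, CACGTG on either strand, in the promoter windows of the 14 members that hold one. The horizontal axis gives the distance of the motif's first base from the transcription start in bases, grey lines span the window and squares mark matches. Lamp1 has 4 squares between 61 and 15 bases before the start, and Ctsd, Ctsl and Gla have squares far upstream.

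Library totals ran from 15792048 to 33377247 counts, and levels are given as CPM, read counts scaled to a common total on library sizes corrected by TMM over all 12 libraries. The targeted genes followed the labels: Sqstm1 averaged 16.7 CPM in Tsc1/p62Δhep, 971 in Tsc1Δhep, 17.1 in p62Δhep and 347 in p62F/F, and Tsc1 averaged 11.3, 7.15, 33.9 and 32.4 CPM in the same order. Tsc1 was highest of its group in Tsc1Δhep library 3, at 10.6 CPM, with 5.55 and 5.27 in libraries 1 and 2. The ribosomal precursor Rn45s stood at 13139 CPM in Tsc1/p62Δhep library 1 and at 944 and 2045 CPM in libraries 2 and 3, and was between 20968 and 37294 CPM in p62Δhep and p62F/F and between 663 and 1433 CPM in Tsc1Δhep. The groups with and without Tsc1 deletion come from separate tables. Between them the table, the instrument and any difference in processing cannot be told apart from Tsc1 deletion, and against p62F/F the same holds for Cre, so levels set across them are a description without a test.

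Hepatocyte markers had the highest summed level of the cell type markers in every library, as the label liver implies. Of the 8, 0 were at 0 in all libraries of a group, and Alb was the largest in every library. Ass1 was low, at means of 1.3 CPM in Tsc1/p62Δhep, 0.324 in Tsc1Δhep, 0.422 in p62Δhep and 0.393 in p62F/F. The summed level of the 8 ranged from 79942 to 110225 CPM in Tsc1/p62Δhep, 25780 to 56675 in Tsc1Δhep, 40802 to 46109 in p62Δhep and 42752 to 77961 in p62F/F. Lysosomal genes are also strongly expressed in macrophages. The summed level of 12 Kupffer and macrophage markers was 158 to 193 CPM in Tsc1/p62Δhep, 345 to 518 in Tsc1Δhep, 660 to 1036 in p62Δhep and 623 to 699 in p62F/F. The sum of 9 markers of recruited macrophages was 83.2 to 130 CPM in Tsc1/p62Δhep, 807 to 5402 in Tsc1Δhep, 137 to 543 in p62Δhep and 241 to 557 in p62F/F. Spp1, which bile duct cells also make, was the largest of the 9 in every library. In bulk tissue, fewer cells of a type and less RNA per cell cannot be told apart.

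Within p62F/F livers the members differed widely in level when CPM was divided by exon length in units of 1000 bases. Lamp1 stood first at 247 CPM per 1000 bases, followed by Psap at 210, whose product prosaposin is cut into activators of sphingolipid breakdown, and Ctsd at 155, the aspartic protease cathepsin D. The lowest were Mitf at 1.33, Tfeb at 1.06 and Gpnmb at 0.678. Rragd was at 1.91 CPM per 1000 bases in p62F/F, rank 32 of 35, and at 51.7 in Tsc1Δhep, rank 10. It was at 9.6 in Tsc1/p62Δhep, rank 23, and at 0.475 in p62Δhep, the lowest of all members in that group.

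Set against livers that kept Tsc1, most of the lysosomal genes stood higher in livers lacking it. In Tsc1Δhep, 20 of the 35 members (57.1%) were higher in every library than in any p62F/F library, against 22.8% of the 13231 genes tested over all libraries. There were 3 members lower in every library, against 23.3% of all genes. The median log2 ratio of group means was 0.63 over the members and 0.01 over all genes. The same count between Tsc1/p62Δhep and p62Δhep, which share no library with the first pair, was 25 higher (71.4%, against 24.1% of all genes) and 2 lower (against 26.9%), with a median log2 ratio of 0.47 over the members and -0.02 over all genes. The overlap of both contrasts was 16 members higher in each, 45.7% of the 35, and 1204 of all 13231 genes, or 9.1%. These 16 are 80.0% of the 20 and 64.0% of the 25. Between Tsc1/p62Δhep and p62F/F, 23 members were higher in every library (24.5% of all genes) and 1 was lower (25.9%). On library totals without scaling, which moved the median of all genes by 0.21 in the first contrast and by -0.06 in the second, 25 and 17 members were higher in every library, against 32.5% and 18.1% of all genes.

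**Figure D2:**
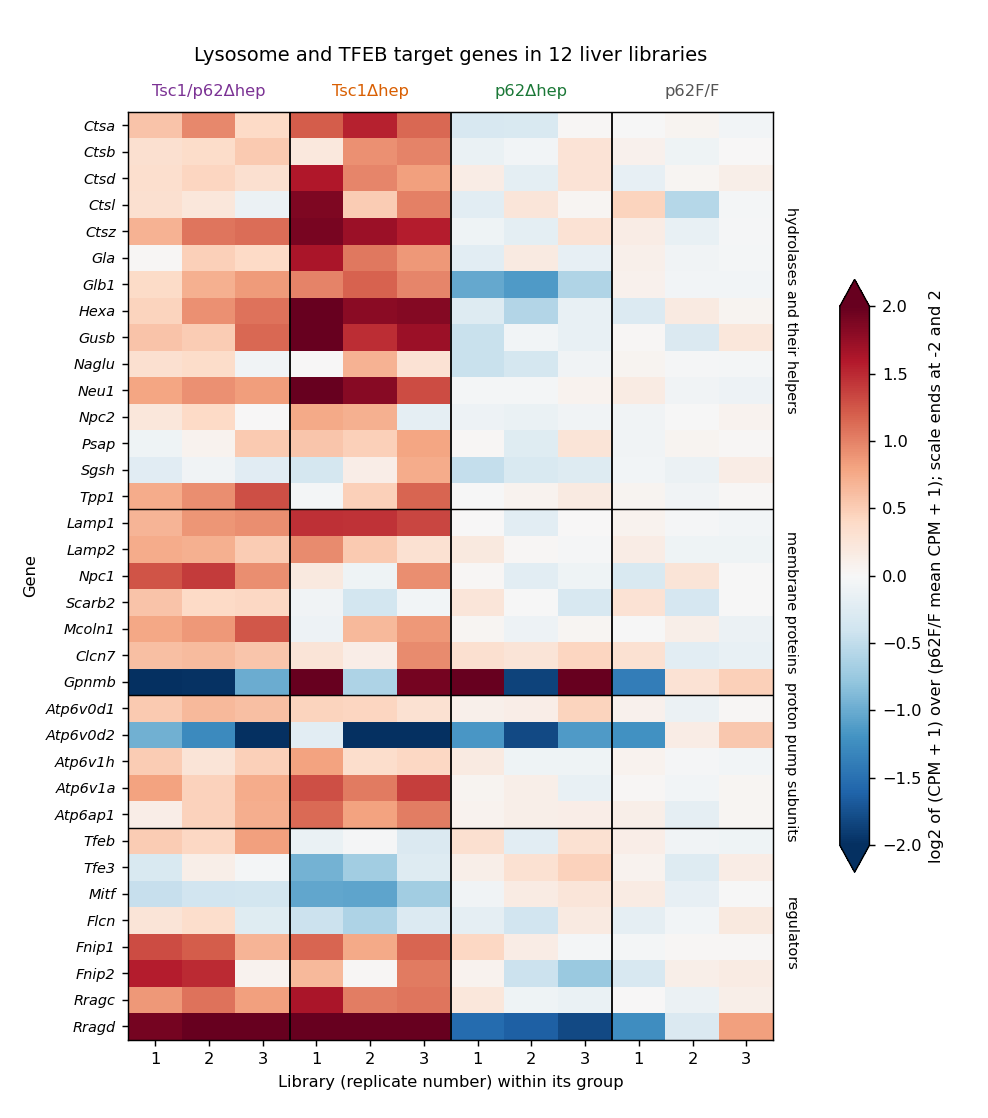
Level of each of the 35 members in each of the 12 libraries. Rows are genes grouped by role, columns are libraries by group, and colour gives log2 of (CPM + 1) over (p62F/F mean CPM + 1), with the colour scale ending at -2 and 2. Most hydrolase rows are red in the 3 Tsc1Δhep columns and paler red in the 3 Tsc1/p62Δhep columns, and the rows of Tfe3 and Mitf are blue in Tsc1Δhep.

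Among the 15 hydrolases and their helpers, 11 (73.3%) stood higher in every Tsc1Δhep library than in any p62F/F library, against 22.8% of all genes. The median log2 ratio for the group was 1.18. Between Tsc1/p62Δhep and p62Δhep 11 did so (73.3%, against 24.1% of all genes), with a median of 0.50. Hexa, the alpha subunit of beta-hexosaminidase, which removes a sugar from GM2 ganglioside, was measured at 80.7, 112 and 126 CPM in Tsc1/p62Δhep, 336, 208 and 213 in Tsc1Δhep, 49.3, 39.0 and 53.1 in p62Δhep and 48.5, 66.9 and 61.7 in p62F/F. All Tsc1Δhep libraries were above all others, and those of Tsc1/p62Δhep lay between them and both groups with Tsc1. Neu1, the lysosomal sialidase, had 81.0, 87.7 and 83.3 CPM in Tsc1/p62Δhep, 293, 166 and 116 in Tsc1Δhep, 45.0, 44.8 and 48.7 in p62Δhep and 51.9, 44.1 and 42.9 in p62F/F, with the same order of groups and no overlap except between p62Δhep and p62F/F. Gusb, beta-glucuronidase, had 46.5, 44.4 and 69.5 CPM in Tsc1/p62Δhep, 148, 87.4 and 103 in Tsc1Δhep, 22.3, 29.6 and 27.6 in p62Δhep and 31.3, 25.0 and 36.2 in p62F/F. Its groups again overlapped only between p62Δhep and p62F/F.

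Ctsz, the carboxypeptidase cathepsin Z, had 333, 430 and 448 CPM in Tsc1/p62Δhep, 765, 676 and 614 in Tsc1Δhep, 194, 180 and 250 in p62Δhep and 228, 186 and 202 in p62F/F. Gla had 9.6, 13.5 and 12.8 CPM in Tsc1/p62Δhep, 31.5, 20.8 and 18 in Tsc1Δhep, 8.07, 10.8 and 8.32 in p62Δhep and 10.3, 8.94 and 9.16 in p62F/F. For Gla the Tsc1/p62Δhep libraries overlapped both groups with Tsc1, while those of Tsc1Δhep stood apart. Glb1, the beta-galactosidase of lysosomes, followed another order, with 14.3, 18.1 and 20.0 CPM in Tsc1/p62Δhep, 22.3, 25.4 and 21.9 in Tsc1Δhep, 4.74, 4.32 and 6.71 in p62Δhep and 11.4, 10.3 and 10.3 in p62F/F. None of its groups overlapped, and p62Δhep was the lowest. The ratio of means for Glb1 was 3.32 between Tsc1/p62Δhep and p62Δhep and 2.17 between Tsc1Δhep and p62F/F.

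The remaining cathepsins were less uniform. Ctsa, Ctsd, Ctsl and Ctsb had ratios of means of 2.5, 2.26, 2.37 and 1.68 between Tsc1Δhep and p62F/F without overlap. Between Tsc1/p62Δhep and p62Δhep the ratios were 1.82 for Ctsa, 1.21 for Ctsd, 1.09 for Ctsl and 1.29 for Ctsb, and Ctsl overlapped. Ctsd overlapped as well on library totals without scaling. Tpp1, a tripeptidyl peptidase, had its higher values in the double deletion, with 154, 175 and 224 CPM in Tsc1/p62Δhep and 88.5, 126 and 205 in Tsc1Δhep, against 90.6, 95.5 and 104 in p62Δhep and 94.2, 86.4 and 92.7 in p62F/F. Naglu and Sgsh, enzymes of heparan sulfate breakdown, Npc2, a carrier of cholesterol in the lysosomal lumen, and Tpp1 overlapped between Tsc1Δhep and p62F/F. On totals without scaling, Naglu, Npc2 and Tpp1 were higher there in every library. Between Tsc1/p62Δhep and p62Δhep, Npc2 and Sgsh were higher in every library with scaling and overlapped without it.

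**Figure D3:**
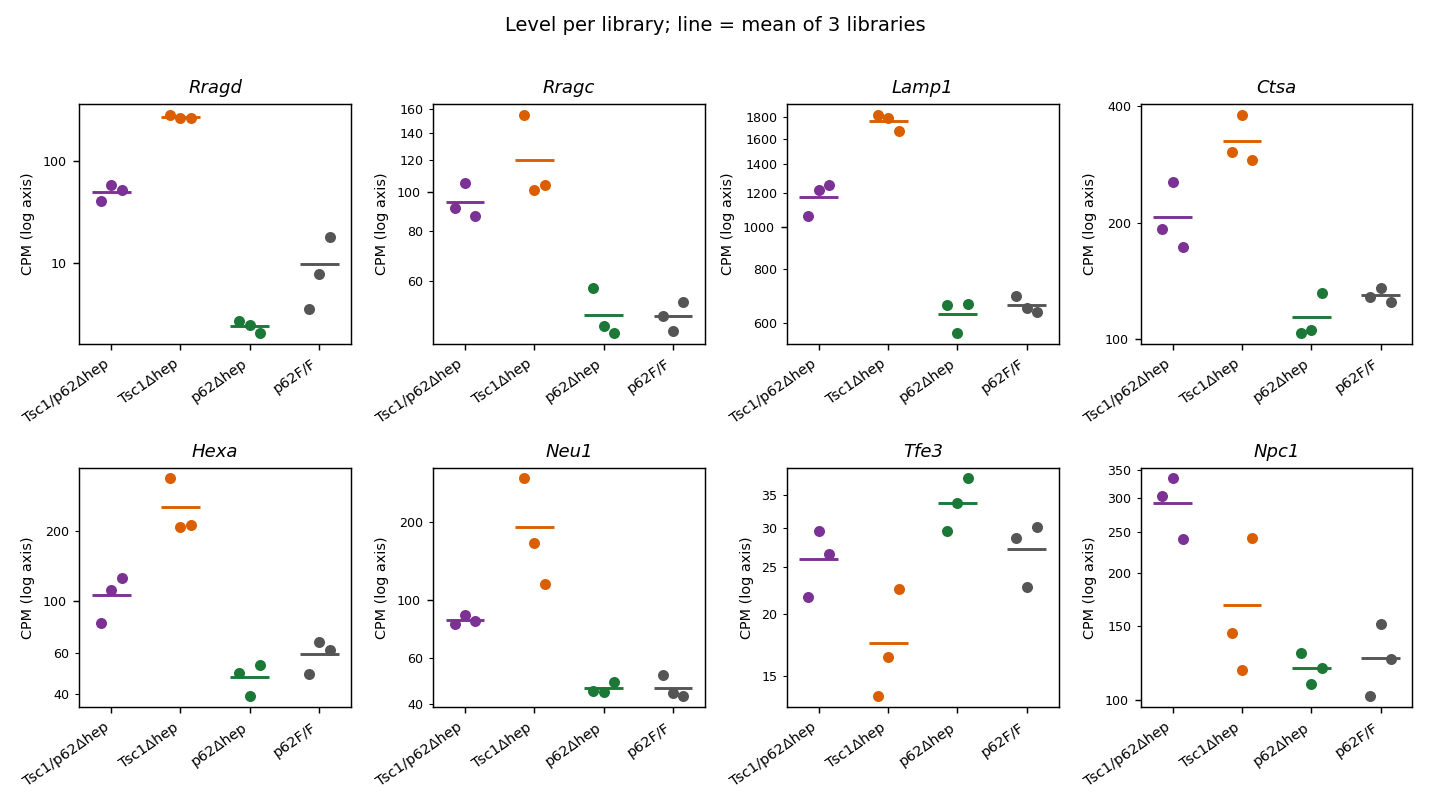
CPM of 8 members in each library on a log axis, with groups from left to right Tsc1/p62Δhep, Tsc1Δhep, p62Δhep and p62F/F, a point per library and a line at the mean of 3. Rragd, Hexa, Neu1, Lamp1 and Ctsa are highest in Tsc1Δhep, Tfe3 is lowest there, and Npc1 has its highest mean, 293 CPM, in Tsc1/p62Δhep.

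Of the 7 membrane proteins, 2 were higher in every Tsc1Δhep library than in any p62F/F library (28.6%, near the 22.8% of all genes). Between Tsc1/p62Δhep and p62Δhep 6 were higher (85.7%, against 24.1%). Lamp1 had 1062, 1219 and 1252 CPM in Tsc1/p62Δhep, 1825, 1791 and 1671 in Tsc1Δhep, 661, 569 and 663 in p62Δhep and 694, 651 and 635 in p62F/F. The libraries of both groups without Tsc1 were all above both groups with it, by ratios of means of 1.87 between Tsc1/p62Δhep and p62Δhep and 2.67 between Tsc1Δhep and p62F/F. Lamp2, the partner of Lamp1 that also serves as receptor of chaperone-mediated autophagy, was higher without overlap in both contrasts, with ratios of means of 1.5 between Tsc1/p62Δhep and p62Δhep and 1.53 between Tsc1Δhep and p62F/F. Npc1, the membrane transporter that passes cholesterol out of lysosomes, had 303, 334 and 240 CPM in Tsc1/p62Δhep, 144, 118 and 242 in Tsc1Δhep, 129, 109 and 119 in p62Δhep and 102, 151 and 125 in p62F/F. The Tsc1Δhep libraries spread over those of p62F/F, with library 3 alone at the level of Tsc1/p62Δhep. Mcoln1, a calcium channel of lysosomes, stood apart between the same groups, with 46.0, 49.5 and 64.6 CPM, against 27.3, 24.9 and 27.2 in p62Δhep, a ratio of means of 2.02. Clcn7, a chloride and proton exchanger of the lysosomal membrane, and Scarb2, a receptor that sorts glucocerebrosidase to lysosomes, had ratios of 1.2 and 1.39 between these groups without overlap, and both overlapped between Tsc1Δhep and p62F/F. On library totals without scaling, both overlapped between Tsc1/p62Δhep and p62Δhep, and Clcn7 was higher in every Tsc1Δhep library than in any p62F/F library.

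Of the 5 proton pump subunits, 4 were higher in every Tsc1Δhep library than in any p62F/F library (80.0%, against 22.8% of all genes). Between Tsc1/p62Δhep and p62Δhep 3 were higher (60.0%, against 24.1%). Atp6v1a, the catalytic subunit, had 129, 101 and 123 CPM in Tsc1/p62Δhep, 181, 152 and 194 in Tsc1Δhep, 76.2, 80.0 and 66.1 in p62Δhep and 74.5, 70.3 and 75.3 in p62F/F. Its order of groups was that of Hexa. Atp6ap1, an accessory subunit, had a ratio of means of 2.01 between Tsc1Δhep and p62F/F. Atp6v1h, a subunit of the part of the pump that faces the cytosol, had 97.1, 81.9 and 95.4 CPM in Tsc1/p62Δhep, 120, 87.4 and 91.2 in Tsc1Δhep, 77.1, 64.1 and 64.1 in p62Δhep and 71.8, 66.8 and 65.4 in p62F/F, so both groups without Tsc1 were above both groups with it. On totals without scaling, its Tsc1/p62Δhep libraries overlapped those of p62Δhep. Atp6v0d2, a subunit variant abundant in osteoclasts and macrophages, was low everywhere, with 3.15, 2.36 and 0.57 CPM in Tsc1/p62Δhep, 5.97, 0.9 and 1.01 in Tsc1Δhep, 2.6, 1.32 and 2.7 in p62Δhep and 2.48, 7.98 and 10.8 in p62F/F. Its groups all overlapped.

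The 8 regulators stood on both sides of the groups with Tsc1. Rragd had the largest ratio of all members in both contrasts, with 40.1, 57.6 and 51.3 CPM in Tsc1/p62Δhep, 279, 262 and 262 in Tsc1Δhep, 2.76, 2.51 and 2.11 in p62Δhep and 3.61, 7.94 and 18.2 in p62F/F. No group overlapped another. The ratio of means was 20.2 between Tsc1/p62Δhep and p62Δhep and 27.0 between Tsc1Δhep and p62F/F, although the p62F/F libraries alone spread widely. Rragc had 90.9, 105 and 87.2 CPM in Tsc1/p62Δhep, 155, 101 and 104 in Tsc1Δhep, 57.5, 46.4 and 44.6 in p62Δhep and 49.1, 45.2 and 53.1 in p62F/F, so it stood higher without Tsc1, with no difference beyond the spread within each table. On totals without scaling, Rragc was lower in every Tsc1/p62Δhep library than in any Tsc1Δhep library. Fnip1 followed Rragc across the tables, with ratios of means of 1.89 between Tsc1/p62Δhep and p62Δhep and 2.07 between Tsc1Δhep and p62F/F. Fnip2 had 103, 97.1 and 35.6 CPM in Tsc1/p62Δhep, 53.4, 34.2 and 70.5 in Tsc1Δhep, 35.4, 24.8 and 19.7 in p62Δhep and 26.8, 36.6 and 37.7 in p62F/F. Its Tsc1/p62Δhep and p62Δhep libraries barely failed to overlap, and they did overlap without scaling. Library 3 of Tsc1/p62Δhep was far below libraries 1 and 2.

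The genes of the transcription factors themselves stood at or below the other groups in Tsc1Δhep. Tfe3 had 21.7, 29.6 and 26.6 CPM in Tsc1/p62Δhep, 13.6, 16.4 and 22.5 in Tsc1Δhep, 29.6, 33.7 and 37.9 in p62Δhep and 28.7, 22.7 and 30.2 in p62F/F. Mitf had 5.76, 6.11 and 6.14 CPM in Tsc1/p62Δhep, 3.51, 3.44 and 4.71 in Tsc1Δhep, 7.81, 9.4 and 10 in p62Δhep and 9.36, 7.25 and 8.16 in p62F/F. Tsc1Δhep had the lowest mean for both genes, and the 3 members lower in every Tsc1Δhep library than in any p62F/F library were Tfe3, Mitf and Flcn, the gene of folliculin, which acts on RagC and RagD. Without scaling Tfe3 and Flcn overlapped and only Mitf of the 3 stayed lower. Tfeb had 8.91, 8.34 and 11.3 CPM in Tsc1/p62Δhep, 5.39, 5.93 and 4.75 in Tsc1Δhep, 7.76, 5.07 and 7.64 in p62Δhep and 6.71, 5.7 and 5.63 in p62F/F. The Tsc1Δhep and p62F/F libraries of Tfeb overlapped, and those of Tsc1/p62Δhep were the highest. Unscaled, the Tsc1/p62Δhep libraries of Tfeb overlapped those of p62Δhep.

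None of the 12 Kupffer and macrophage markers was higher in every Tsc1Δhep library than in any p62F/F library. There were 8 lower (66.7%, against 23.3% of all genes), while 4 of the 9 recruited macrophage markers were higher (44.4%, against 22.8%). Between Tsc1/p62Δhep and p62Δhep, where 25 members were higher, 12 of the 12 and 6 of the 9 markers were lower in every library. Of all genes, 26.9% were lower in this way. Of the 8 hepatocyte markers, 2 were lower (25.0%, near the 23.3% of all genes) and 0 higher in the first contrast. In the second, 7 were higher (87.5%, against 24.1%). These 7 included Ass1, at means of 1.3 CPM in Tsc1/p62Δhep and 0.422 CPM in p62Δhep.

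In livers lacking both genes, 7 of the 35 members (20.0%) were called lower and 0 higher than in livers lacking Tsc1 alone, in edgeR's quasi-likelihood test at an adjusted p below 0.05 after Benjamini-Hochberg adjustment. Over all 12620 genes tested, 14.9% were called lower and 9.25% higher, so the share of members called lower was near that of all genes. The 7 genes were 5 hydrolases (Hexa, Neu1, Gusb, Gla and Ctsz), the membrane protein Gpnmb and the regulator Rragd, and 0 of the 5 proton pump subunits were called. The median log2 fold change was -0.35 over the members and -0.05 over all genes. At an unadjusted p below 0.05, 13 members were lower, against 22.7% of all genes, and 4 were higher, against 17%. Without overlap of the libraries, 14 members were lower (23.1% of all genes) and 5 higher (21.9%). On library totals without scaling, which moved the median of all genes by -0.29, these counts were 19 lower, against 39.2% of all genes, and 1 higher, against 9.31%. Atp6v0d1, a membrane subunit of the pump, was higher in every Tsc1/p62Δhep library with scaling (log2 ratio of means 0.19) and lower in every one without it (-0.15). All 35 passed the filter on low counts, Gpnmb through its Tsc1Δhep libraries.

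Rragd fell 5.40-fold in Tsc1/p62Δhep relative to Tsc1Δhep, a log2 fold change of -2.43 ± 0.23 (SE, n = 3 libraries per group, edgeR adjusted p 0.00104). Its level in Tsc1/p62Δhep was still above every p62F/F library, at a ratio of means of 5.02. Hexa fell by 1.25 ± 0.29 on the log2 scale (edgeR adjusted p 0.02) and Neu1 by 1.20 ± 0.34 (edgeR adjusted p 0.0416). In Tsc1/p62Δhep both were still above p62Δhep in every library, by ratios of means of 2.25 and 1.82. Gusb fell by 1.08 ± 0.29 (edgeR adjusted p 0.0319), Gla by 0.97 ± 0.29 (edgeR adjusted p 0.0447) and Ctsz by 0.76 ± 0.23 (edgeR adjusted p 0.0492). Of the 7, Gla is the member whose promoter window holds TCACGTG.

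**Figure D4:**
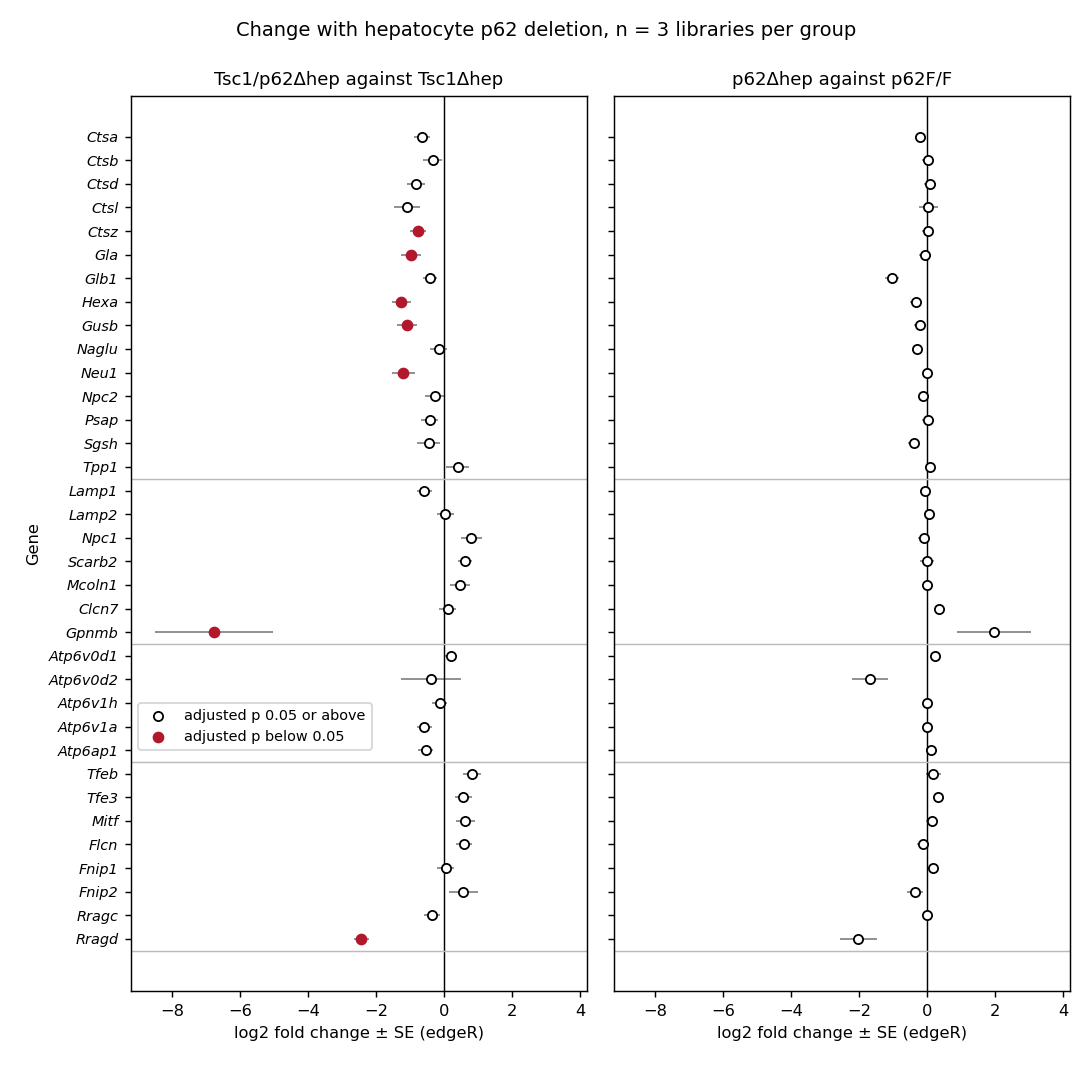
Log2 fold change ± SE of each member from edgeR with 3 libraries per group, on the left for Tsc1/p62Δhep against Tsc1Δhep and on the right for p62Δhep against p62F/F. Filled points have an adjusted p below 0.05. There are 7 filled points on the left, all below 0, and 0 on the right.

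Gpnmb, a glycoprotein of lysosomes and melanosomes that is abundant in lipid-laden macrophages, was the member with the largest change and the widest spread. It had 0.206, 0.382 and 1.71 CPM in Tsc1/p62Δhep, 229, 2.51 and 19.5 in Tsc1Δhep, 26.7, 0.501 and 24.7 in p62Δhep and 1.07, 5.61 and 6.56 in p62F/F. The Tsc1/p62Δhep libraries held 3, 6 and 27 counts, all below every Tsc1Δhep library, where it had 5484, 95 and 426 counts. With 2 of the 3 Tsc1/p62Δhep libraries under the minimum count of 10, it entered the test through the group in which it was high, so its call is no support for a count of members and its fold change is imprecise. The log2 fold change between them was -6.76 ± 1.74 (SE, n = 3, edgeR adjusted p 0.0287), and it was -3.81 without Tsc1Δhep library 1 (edgeR adjusted p 0.0353). In the same comparison 9 of the 9 recruited macrophage markers and 6 of the 12 Kupffer and macrophage markers were called lower, against 14.9% of all genes. Of these 12, 0 were called higher, against 9.25% of all genes. Their log2 fold changes were below 0 for 8 and above 0 for 4, up to 2.68. The summed levels of both marker lists are those given above. The part of these markers' cells in the change of Gpnmb, and of the other members called lower, was not tested.

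**Figure D5:**
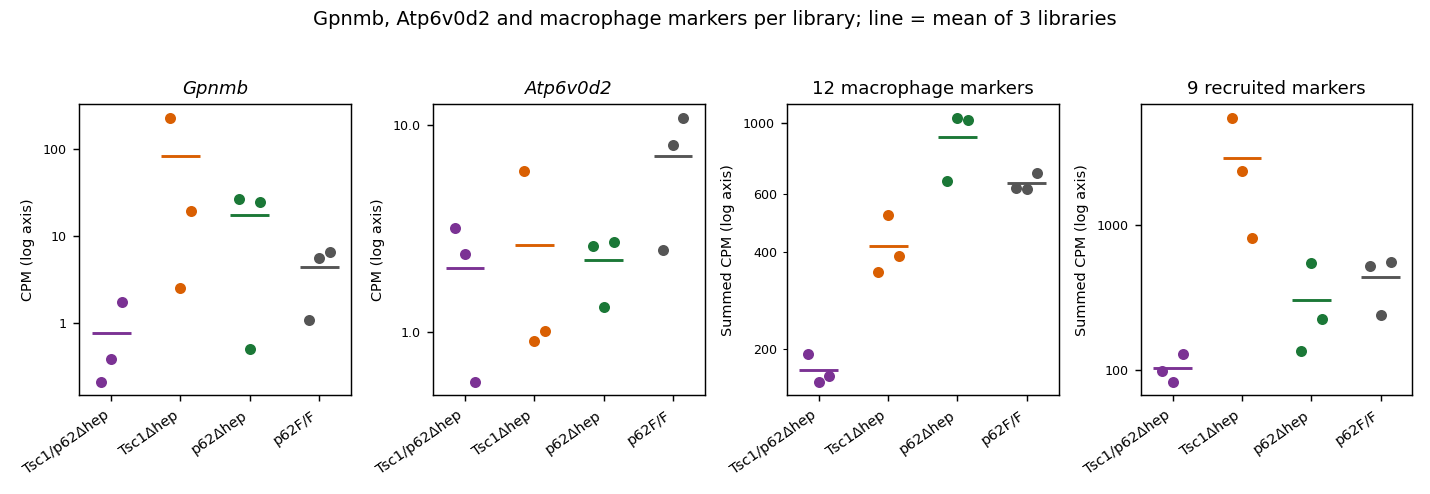
CPM of Gpnmb and Atp6v0d2 and the summed CPM of 12 Kupffer and macrophage markers and 9 recruited macrophage markers in each library, on log axes, with a line at the mean of 3 libraries. For Gpnmb and for the recruited markers the highest library is Tsc1Δhep 1, at 229 and 5402 CPM, and all 3 Tsc1/p62Δhep libraries are below all Tsc1Δhep libraries.

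The calls rested on single libraries to different degrees. Rragd was called without each of the 6 libraries in turn, with adjusted p between 0.000992 and 0.0118. Without Tsc1/p62Δhep library 1 or library 2 it was the only member called, and without library 3 it was called with Hexa and Gusb. Without Tsc1Δhep library 1 the calls were Rragd, Hexa, Neu1 and Gpnmb, and without library 2 they were Rragd, Hexa, Gusb and Gpnmb. Without Tsc1Δhep library 3, the library with the most Tsc1, 8 members were called lower and 7 higher, and 24.4% of all genes tested were called lower and 20.9% higher in that fit, so the members' counts were near the share of all genes. The further one lower was Ctsd, and the 7 were Tfeb, Tfe3, Mitf, Flcn, Npc1, Scarb2 and Tpp1. Without that library and Tsc1/p62Δhep library 1, 3 members were called lower (Rragd, Hexa and Neu1) and 2 higher, against 14.7% of all genes lower and 11.3% higher. Within Tsc1Δhep, library 1 was the highest for 18 of the 35 members, library 2 for 4 and library 3 for 13. The median ratio of the highest to the lowest library was 1.62, against 1.36 in Tsc1/p62Δhep, 1.31 in p62Δhep and 1.21 in p62F/F. Cell type markers also differed between Tsc1Δhep libraries 1, 2 and 3. Summed stellate cell markers were at 32.1, 168 and 218 CPM, endothelial at 33.7, 88.7 and 184, and bile duct at 53.6, 18.8 and 29.6. In library 1 Lyz2 alone gave 179 of the 345 CPM of Kupffer and macrophage markers. The Kupffer marker Clec4f ran from 0.0418 to 39.8 CPM within Tsc1Δhep. The part of these differences in the members' levels was not tested.

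By role, called members included, the median log2 fold change was -0.65 over the 15 hydrolases, of which 14 were below 0. It was -0.38 over the pump subunits, 0.10 over the membrane proteins and 0.57 over the regulators, and no test was run between roles. Among the members that did not pass, Tfeb had a log2 fold change of 0.83 ± 0.26 (edgeR adjusted p 0.0518), Scarb2 0.63 ± 0.20 (edgeR adjusted p 0.0582) and Npc1 0.80 ± 0.31 (edgeR adjusted p 0.1). Lamp1 had -0.58 ± 0.22 (edgeR adjusted p 0.0866) and Ctsl -1.09 ± 0.38 (edgeR adjusted p 0.0723). After removal of the trend with GC content and gene length, in a fit with limma, 5 members were called higher and 4 lower. The limma fit without this removal called 2 members higher and 6 lower. Over all genes limma called 2365 higher and 1864 lower with the removal, and 1357 higher and 1787 lower without it. The edgeR fit called 1167 higher and 1886 lower.

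Deletion of Sqstm1 in livers that kept Tsc1 gave no call among the members in edgeR. Over all 12567 genes tested, 0.0159% were called lower and 0% higher. DESeq2 called 2 members lower, Glb1 (adjusted p 0.00691) and Rragd (adjusted p 0.00961), and it called 0.884% of the 16735 genes it fitted lower and 0.191% higher. The median log2 fold change was 0.00 over the members and 0.00 over all genes, and 4 members had an unadjusted p below 0.05, all lower, against 4.96% of all genes lower and 3.16% higher. These were Glb1 at -1.03 ± 0.20 (SE, n = 3, edgeR adjusted p 0.293), Rragd at -2.02 ± 0.55 (edgeR adjusted p 0.403), Atp6v0d2 at -1.69 ± 0.54 (edgeR adjusted p 0.504) and Sgsh at -0.40 ± 0.17 (edgeR adjusted p 0.613). Without overlap, Glb1, Rragd, Sgsh and Naglu were lower in every p62Δhep library than in any p62F/F library (6.85% of all genes) and Atp6v0d1 was higher (6.41%). On totals without scaling, Atp6v0d1 overlapped and Tfe3 was higher in every p62Δhep library. In this pair Cre differs along with p62.

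The difference between the p62 effects with and without Tsc1 was tested as an interaction over all 12 libraries. It was called for 1 member, lower for Gpnmb at -8.71 ± 2.25 (log2, edgeR adjusted p 0.023). Of 13231 genes, 9.32% were called lower and 6.76% higher. Gpnmb had under 10 counts in 2 Tsc1/p62Δhep libraries and 1 p62Δhep library. It entered this test through libraries in which it was higher, so the value is imprecise. At an unadjusted p below 0.05, 10 members were lower (18.8% of all genes) and 3 higher (14.8%). Neu1 had an interaction of -1.19 ± 0.38 (edgeR adjusted p 0.0512). For Rragd the interaction was -0.42 ± 0.59 (edgeR adjusted p 0.651), so the p62 effects on it with and without Tsc1 were not shown to differ. For Hexa it was -0.93 ± 0.34 (edgeR adjusted p 0.0833).

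Lysosomal genes outside the 35 were read from further lists. Of 32 other hydrolases tested between Tsc1/p62Δhep and Tsc1Δhep, 9 (28.1%) were called lower and 0 higher, with a median log2 fold change of -0.24. Of all genes tested, 14.9% were called lower and 9.25% higher. Galns, a sulfatase of keratan sulfate, fell to a mean of 12.8 ± 1.6 CPM in Tsc1/p62Δhep, against 41.5 ± 2.37 in Tsc1Δhep (SD, n = 3, edgeR adjusted p 0.00209). Asah1, acid ceramidase, fell to 47.8 ± 5.51 CPM in Tsc1/p62Δhep, against 147 ± 63.2 in Tsc1Δhep (SD, n = 3, edgeR adjusted p 0.013). Ctss, the cathepsin of antigen-presenting cells, fell to 14.6 ± 1.75 CPM in Tsc1/p62Δhep, against 82.6 ± 30.8 in Tsc1Δhep (SD, n = 3, edgeR adjusted p 0.00292). Asah1 kept its call in 3 of the 6 fits without 1 library, and Galns and Ctss in 6 of 6.

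Of 19 other membrane proteins, 5 (26.3%) were called lower and 0 higher, against 14.9% and 9.25% of all genes. Among the 5 were Cd63 (-5.73 ± 0.67), Cd68 (-2.85 ± 0.30), a marker of macrophages, and Laptm4b (-1.56 ± 0.22). Their edgeR adjusted p were 0.00199, 0.00141 and 0.00377. Of 13 other pump subunits tested, 4 (30.8%) were called lower and 1 higher, against the same shares of all genes. Atp6v0e2 had a mean of 1.04 ± 0.41 CPM in Tsc1/p62Δhep, against 34.8 ± 10.1 in Tsc1Δhep (SD, n = 3, edgeR adjusted p 0.000581), and 1.2 ± 0.652 in p62Δhep against 1.7 ± 0.892 in p62F/F. It was thus at its high level in Tsc1Δhep alone, with no overlap with the other groups. Atp6v1c1 fell by 1.14 ± 0.23 on the log2 scale (edgeR adjusted p 0.0132) and Atp6v1d rose by 0.88 ± 0.20 (edgeR adjusted p 0.0198), and these calls held in 3 and in 2 of the 6 fits without 1 library. None of 14 nutrient sensing genes and none of 7 autophagy genes with TFEB sites was called by edgeR. At an unadjusted p below 0.05 there were 5 and 0, against 22.7% of all genes lower and 17% higher. In p62Δhep against p62F/F none of these genes was called. The recruited macrophage markers named above were lower in the same comparison, and their part in the levels of Ctss, Cd68 and Cd63 was not tested.

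Across Tsc1Δhep and p62F/F, 17 of the 32 other hydrolases, 6 of the 19 membrane proteins and 9 of the 13 pump subunits were higher in every library, against the 22.8% of all genes given above. Between Tsc1/p62Δhep and p62Δhep the counts were 16, 8 and 9, against 24.1%. The members were also divided by TCACGTG in their promoter window. With the motif, 9 of 13 were higher in every Tsc1Δhep library than in any p62F/F library, with a median log2 ratio of 1.05. Without it, 9 of 18 were higher and 3 lower, with a median of 0.62. Between Tsc1/p62Δhep and p62Δhep 11 of 13 with the motif and 11 of 18 without it were higher, with medians of 0.66 and 0.45. With the motif 0 were lower there and without it 2, against 26.9% of all genes. Between Tsc1/p62Δhep and Tsc1Δhep, 1 of 13 with the motif and 6 of 18 without it were called lower, against 14.9%. Of the 8 regulators with a window 2 held the motif, so the division overlaps with role. No test was run on this division, and 4 members had no window.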

How the data were processed

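The study has 2 count tables, each with 6 libraries: one held Tsc1/p62Δhep and Tsc1Δhep, the other p62Δhep and p62F/F. The authors deposited whole-number counts of reads per gene symbol, which is the unit as found in the files. Per the labels' protocols, poly(A) RNA was made into directional libraries and sequenced single-end or paired-end, without saying which for each sample. Per the submitters' processing notes the build was hg19, a human build, while the symbols are those of mouse. The aligner, the counter and its use of strand were not stated. Of the 35 members, 12 share exon bases with another gene and 6 share at least 10% of them (Ctsd, Ctsl, Sgsh, Ctsb, Hexa and Ctsa), so their counts are uncertain to that extent.

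Groups and replicate numbers came from the titles. Counts were tested within each table with edgeR 4.0.16 in R 4.3.3 (filterByExpr with a minimum count of 10 and a total of 15, TMM, quasi-likelihood, Benjamini-Hochberg adjusted p below 0.05). The interaction was fitted over all 12 libraries. DESeq2 1.42.0, limma 3.58.1 on log2(CPM + 1), other size factors, no filter, left-out libraries and a replicate block were alternatives. Ratios across tables used group means on TMM-scaled CPM, with a pseudocount of 1 CPM on the log2 scale. No library was a duplicate of another of its group: chi-square per gene between replicates was at least 36.2. Libraries of different groups were not compared in this way. The steps were tested on simulated data. Exon lengths and overlaps came from GENCODE M21 and promoters from RefSeq GRCm38.p6, in which 31 of 35 members matched. All members are named, with Sqstm1 and Tsc1 as checks. From each further list, the genes named were the 3 with the smallest p among those called between Tsc1/p62Δhep and Tsc1Δhep. The members and lists were chosen with earlier results of these data known. Intervals and tests cover the spread and counting error of these libraries only.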

Additional observations from a re-analysis of the deposited data

Results flagged for a closer look

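Gpnmb was the member called in the edgeR interaction test of the p62 effects without and with Tsc1, at -8.71 ± 2.25 on the log2 scale (adjusted p 0.023). It had under 10 counts in 2 Tsc1/p62Δhep libraries and 1 p62Δhep library, and entered the test through libraries in which it was higher. The value is thus imprecise. In the 8 other settings, fitted with edgeR, DESeq2 or limma, it was called in 5, with adjusted p between 0.000714 and 0.141. The p62 effect was -6.76 in livers without Tsc1 and 1.95 in livers with Tsc1, where it was not called (adjusted p 0.69). Leaving out each of the 12 libraries in turn, the interaction was called in 7 fits, with adjusted p between 0.0108 and 0.0678 and values between -10.07 and -5.76. The recruited macrophage markers, summed, were lower in every Tsc1/p62Δhep library than in any Tsc1Δhep library, and their part in this difference was not tested.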

How the results depend on the processing

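Between Tsc1/p62Δhep and Tsc1Δhep, 7 members were called lower (14.9% of all genes) and 0 higher (9.25%). Percentages in brackets below are again the shares of all genes in the same fit. The count lower was 10 with DESeq2 (14.6%), 1 with a replicate block (9.49%) and 13 with all 12 libraries in 1 fit (22.3%). It was 3 without both Tsc1Δhep library 3 and Tsc1/p62Δhep library 1 (14.7%). After removal of the GC and length trend in limma, chosen after seeing the data, it was 4 (14.9%). In limma without this removal it was 6 (14.2%). Leaving out 1 library gave 1 to 8 (5.82% to 24.4%). The count higher was 2 with DESeq2 (10.4%), 1 with RLE factors (9.52%) and 2 with limma (10.8%). It was 5 with all 12 libraries (17%), 2 without both libraries (11.3%) and 5 after removal of the trend (18.9%). Leaving out 1 library gave 0 to 7 (2.69% to 20.9%). The median of -0.35 was -0.44 with upper quartile factors, -0.21 without both libraries and -0.20 after removal of the trend. Between p62Δhep and p62F/F, DESeq2 called 2 lower (0.884%). For the interaction, the count lower was 5 with DESeq2 (9.44%), 2 with upper quartile factors (10.6%) and 0 with limma (9.33%). It was 0 with the replicate block (4.1%), 0 after removal of the trend (10.5%) and 3 without both libraries (14.5%). Leaving out 1 library gave 0 to 6 (4.98% to 18.9%). The interaction count higher was 2 without both libraries (14.4%) and 0 to 1 without 1 library (3.44% to 17.8%), and the median ran from -0.27 to -0.12. On unscaled totals 1 member was lower in every Tsc1Δhep than in any p62F/F library (14.3%). Leaving out 1 library gave 1 to 3 lower between Tsc1/p62Δhep and p62F/F.

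None of the fold changes that changed sign in the alternative fits was called. Fnip1 was -0.044 with upper quartile factors, -0.02 after removal of the trend and -0.073 to 0.24 without 1 library. Lamp2 was -0.055 with upper quartile factors, -0.11 without both libraries and -0.074 to 0.25 without 1 library. Atp6v0d2 was 0.13 after removal of the trend. Without 1 library it ran from -0.83 to 1.10, Atp6v1h from -0.21 to 0.043, Clcn7 from -0.055 to 0.43 and Naglu from -0.29 to 0.055. The cause of these shifts was not tested. Same-numbered libraries did not deviate together (correlations -0.409, -0.514 and 0.037 between p62Δhep and p62F/F, and -0.082, -0.084 and -0.125 between Tsc1/p62Δhep and Tsc1Δhep), so the numbers were not taken as pairs. For differently numbered libraries the correlations ran from -0.173 to 0.533 between p62Δhep and p62F/F. They ran from -0.036 to 0.106 between Tsc1/p62Δhep and Tsc1Δhep. Whether libraries are matched in another order was not tested. With the block, Rragd remained called. On unscaled totals Atp6v0d1 was lower, not higher, in every Tsc1/p62Δhep library than in any Tsc1Δhep library, at a log2 ratio of -0.15.

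Precision rests on 3 libraries per group. Gpnmb had the widest spread, with a highest to lowest ratio of 91.1 within Tsc1Δhep.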
